A study of Mus musculus with 8 samples.

Results

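Membrane carriers for inorganic ions, phosphate and organic solutes were examined in TGF-β-treated mouse renal fibroblast cultures. The group comprised every row of the deposited gene table whose symbol belongs to the solute carrier families SLC4, SLC8, SLC9, SLC12, SLC13, SLC20, SLC22, SLC26 or SLC34, or to the organic anion transporter family SLCO. This gave 95 of 22322 genes. Of these, 3 encode no carrier and entered only through their symbols: Slc9a3r1 and Slc9a3r2, the PDZ scaffolds NHERF1 and NHERF2, and Slc4a1ap, the AE1-binding protein kanadaptin. They are counted with the carriers in totals of the whole group and of its families, but not by nephron segment. RNA sequencing had been done on 8 libraries. In 4 of them the cells carried an adenovirus with Cre recombinase (Ad-Cre, labelled as Suv39h1 knockdown), and in the other 4 an adenovirus with GFP (Ad-GFP, labelled WT). Cells of both groups came from kidney, were grown as primary fibroblasts and had 48 hours of TGF-β (5 ng/ml), so that neither group is an unstimulated baseline. The labels give no floxed allele, no age and no strain, and do not say whether the replicates of a group came from separate animals or cultures. P-values therefore measure the spread between these libraries, which may be technical.

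The kidney tubule recovers most of the filtered salt, bicarbonate, phosphate and organic solutes through such carriers. Each nephron segment is known for its own set: NaPi-IIa and NHE3 on the proximal brush border with NBCe1 on the basolateral side, NKCC2 in the thick ascending limb, NCC in the distal convoluted tubule, and AE1 and pendrin in intercalated cells of the collecting duct. Housekeeping relatives such as NKCC1, AE2 and the PiT phosphate carriers control pH, cell volume and phosphate uptake in nearly all cells, fibroblasts included.

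Suv39h1, the H3K9 methyltransferase gene targeted in the Ad-Cre cells, was at 21.6 to 25.3 CPM (the read count relative to the scaled library total) in the 4 Ad-Cre libraries and at 27.8 to 29.6 CPM in the 4 Ad-GFP libraries. The groups did not overlap, but the Ad-Cre level was still 79.6% of Ad-GFP (edgeR quasi-likelihood test, adjusted p = 3.29e-05), a partial reduction of the total gene count. Exons of Suv39h1 overlap 767 bases of Gm14820 on the other strand, with the strand setting of the counting unknown. Library totals were 18006938 to 23940043 counts in Ad-Cre and 15879244 to 17930632 in Ad-GFP, so that depth separated the groups. The sum of 8 general epithelial markers was 4616 to 4674 CPM in Ad-Cre and 5077 to 5296 CPM in Ad-GFP. The sum of 10 fibroblast markers was lower in both groups, at 760 to 849 CPM in Ad-Cre and 1318 to 1371 CPM in Ad-GFP. The fibroblast label is thus accompanied by abundant epithelial transcripts, and in such bulk RNA fewer cells of a type and less RNA per cell cannot be told apart.

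Of the 95 genes, 82 had at least 1 count in some library and 13 had none. The genes with no count were Slc22a6, Slc22a7, Slc22a8, Slc22a12, Slc22a19, Slc22a20, Slc22a26, Slc22a27, Slc22a28, Slc22a30, Slc26a5, Slco6c1 and Slco6d1. A further 32 had counts but too few to be tested, and 50 passed the filter on low counts. Among those 50, 11 were higher in Ad-Cre and 10 were lower (edgeR, Benjamini-Hochberg adjusted p under 0.05 over all 13337 genes tested). That is 42% of the tested carrier genes, close to the 40.3% called among all genes tested, and the split was also close to that of all genes, of which 19.8% were called higher and 20.5% lower. Their median log2 fold change was 0.05, against 0.00 over all genes tested. In all 21 called genes the libraries of the 2 groups did not overlap. None of the other 29 was separated in this way, and across all genes tested 35.4% were. Each of the 21 had an exact two-sided permutation p = 0.0286 on CPM, the smallest that 4 libraries against 4 allow. Most changes were small: 4 of the 50, Slc34a2, Slc12a3, Slc12a1 and Slc4a10, changed by at least 1.5-fold.

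**Figure D1:**
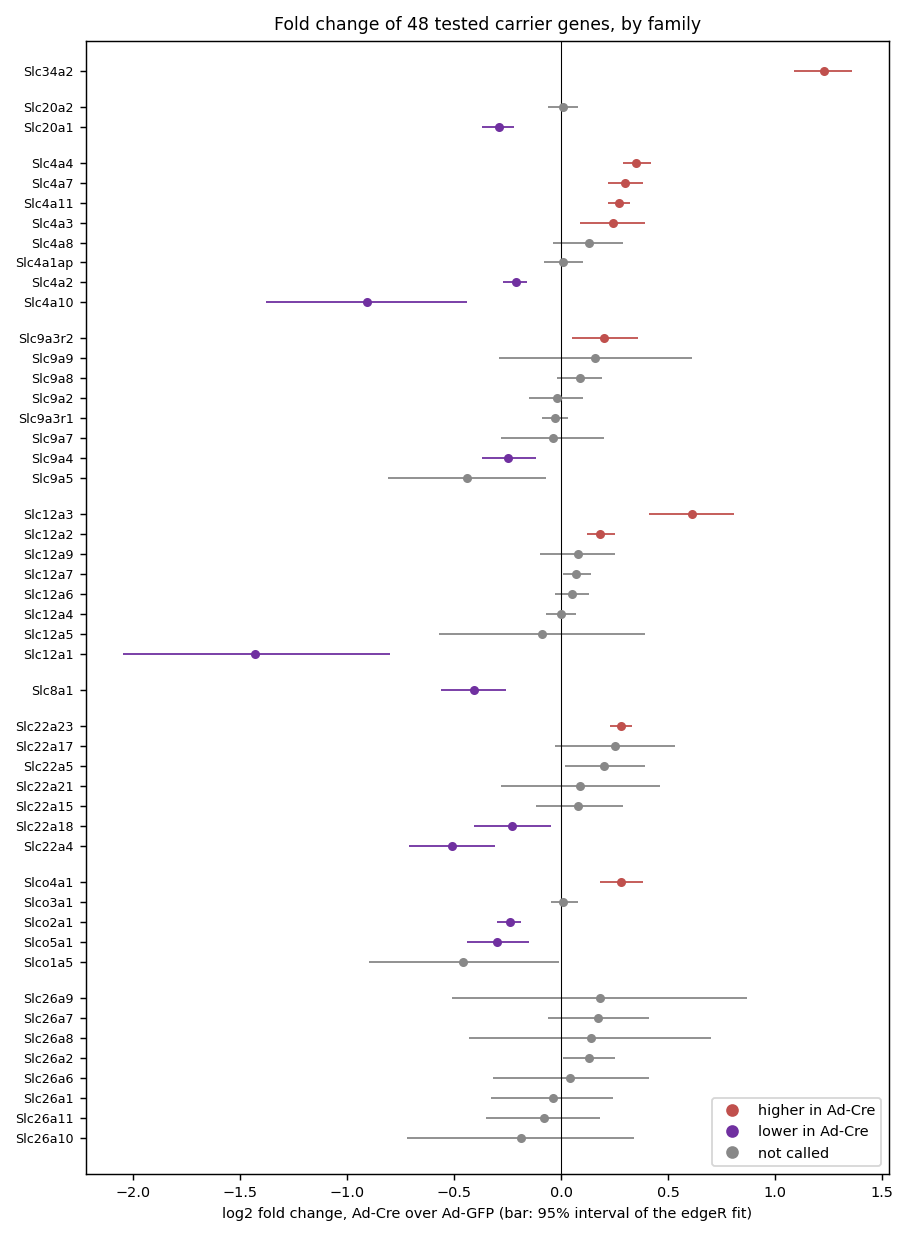
Log2 fold change of Ad-Cre over Ad-GFP (x axis) for 48 tested carrier genes, grouped by family from SLC34 at the top to SLC26 at the bottom; bars are 95% intervals of the edgeR fit and colours mark the call. Slc34a2 lies farthest to the right at 1.23 and Slc12a1 farthest to the left at -1.43, while all 8 SLC26 genes are uncalled.

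Sequence upstream of the start site is shown for 3 genes, Slc34a2 because it had the largest rise, and Slc12a3 and Slc12a1 because these sister genes of the apical sodium chloride cotransporters moved in opposite directions. The sequences are the 250 bases before the RefSeq start site in GRCm38.p6, all on the plus strand, at chr5:53049103-53049352 for Slc34a2, chr8:94328958-94329207 for Slc12a3 and chr2:125152350-125152599 for Slc12a1. Capitals mark matches on either strand to the TATA box (TATAAA), the CCAAT box (CCAAT) and the GC box (GGGCGG). The CAGA box (CAGACA, a SMAD-binding sequence), the HNF1 half-site (GTTAAT) and the AP-1 site (TGANTCA) were searched as well. No marked match overlaps another.
Slc34a2: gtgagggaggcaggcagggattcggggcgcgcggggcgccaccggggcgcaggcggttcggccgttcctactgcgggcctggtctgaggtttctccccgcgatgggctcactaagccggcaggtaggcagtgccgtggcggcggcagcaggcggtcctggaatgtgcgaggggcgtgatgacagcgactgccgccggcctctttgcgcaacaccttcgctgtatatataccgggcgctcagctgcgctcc
Slc12a3: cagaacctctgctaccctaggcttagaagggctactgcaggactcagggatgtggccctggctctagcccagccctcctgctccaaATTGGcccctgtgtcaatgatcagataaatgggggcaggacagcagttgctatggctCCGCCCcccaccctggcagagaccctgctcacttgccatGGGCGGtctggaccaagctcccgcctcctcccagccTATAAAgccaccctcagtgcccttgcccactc
Slc12a1: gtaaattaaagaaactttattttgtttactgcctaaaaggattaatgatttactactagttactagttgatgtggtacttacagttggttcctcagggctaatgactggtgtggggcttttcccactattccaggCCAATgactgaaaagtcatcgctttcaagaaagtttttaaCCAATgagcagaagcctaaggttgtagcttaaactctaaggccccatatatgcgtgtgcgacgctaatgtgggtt
The Slc34a2 window is 69.6% G and C with 28 CpG dinucleotides and holds none of the 6 motifs as spelled. Near its end it has the letters tatatata, which a search for TATAAA does not match, so a TATA-like element is not excluded. The Slc12a3 window, 61.2% G and C with 3 CpG, holds a TATA box from -32 to -27 relative to the start site, a CCAAT box from -164 to -160 and GC boxes from -107 to -102 and from -68 to -63. The Slc12a1 window, 39.6% G and C with 4 CpG, holds CCAAT boxes from -115 to -111 and from -75 to -71. Among 32851 mouse promoter windows of this length, 12.4% hold the TATA box, 33.8% the CCAAT box and 32.7% the GC box. The CAGA box, HNF1 half-site and AP-1 site are in 17.1%, 6.43% and 6.75% of them. RefSeq windows were at hand for 75 of the 95 genes, and the match of a motif is a description of letters only. The annotated Slc34a2 gene in GENCODE M21 begins upstream of this RefSeq start, at position 53038081. In the same annotation Slc12a1 begins inside its printed window, at position 125152505. Its CCAAT box from -115 to -111 lies before that position, and the box from -75 to -71 lies after it, within the annotated gene. Slc12a3 begins at position 94329201, near the end of its window and after all its marked matches.

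Sodium-phosphate carriers changed in opposite directions. Slc34a2 encodes NaPi-IIb, the apical sodium-phosphate cotransporter known from lung and small intestine. Its level was 28.2, 25.7, 25.4 and 25.6 CPM in Ad-Cre replicates 1 to 4, against 11, 10.6, 11.9 and 11.2 CPM in Ad-GFP replicates 1 to 4. Every Ad-Cre library lay far above every Ad-GFP library. The gene rose to 234% of Ad-GFP (log2 fold change 1.23 ± 0.065, SE, n = 4 per group; edgeR adjusted p = 5.06e-14), the strongest rise among the tested carriers. The housekeeping phosphate carrier PiT1, encoded by Slc20a1, moved the other way, with 78.4, 87.9, 79.4 and 79.1 CPM in Ad-Cre and 103, 99.3, 97.7 and 98.5 CPM in Ad-GFP. It fell to 81.5% (95% interval 77.5% to 85.8%; edgeR adjusted p = 2.94e-07), and its highest Ad-Cre library was still under the lowest Ad-GFP library. Its exons overlap 452 bases of 9830144P21Rik on the other strand, and the strand setting of the counting is unknown here. Its paralog PiT2, encoded by Slc20a2, was at 80.2, 77.5, 80.0 and 73.1 CPM in Ad-Cre and 76.2, 78.3, 77.6 and 76.9 CPM in Ad-GFP. The groups overlapped, and the 95% interval of the ratio ran from 95.6% to 106%.

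The phosphate carriers of the proximal brush border were almost without counts. Slc34a1, encoding NaPi-IIa, had 2 counts in Ad-Cre replicate 2 and 0 in the other 7 libraries. Slc34a3, encoding NaPi-IIc, had 1 count in Ad-GFP replicate 1 and 0 elsewhere. On the authors' FPKM scale, which corrects for gene length and so allows levels to be compared between genes, Slc34a2 made up 11.8% ± 0.74 of the summed level of the 5 phosphate carriers in Ad-Cre and 4.77% ± 0.31 in Ad-GFP (SD, n = 4). Slc20a1 made up 46.1% ± 1.7 in Ad-Cre and 53.7% ± 1.1 in Ad-GFP. The PiT genes therefore remained the main phosphate carrier transcripts in each group despite the rise of Slc34a2.

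**Figure D2:**
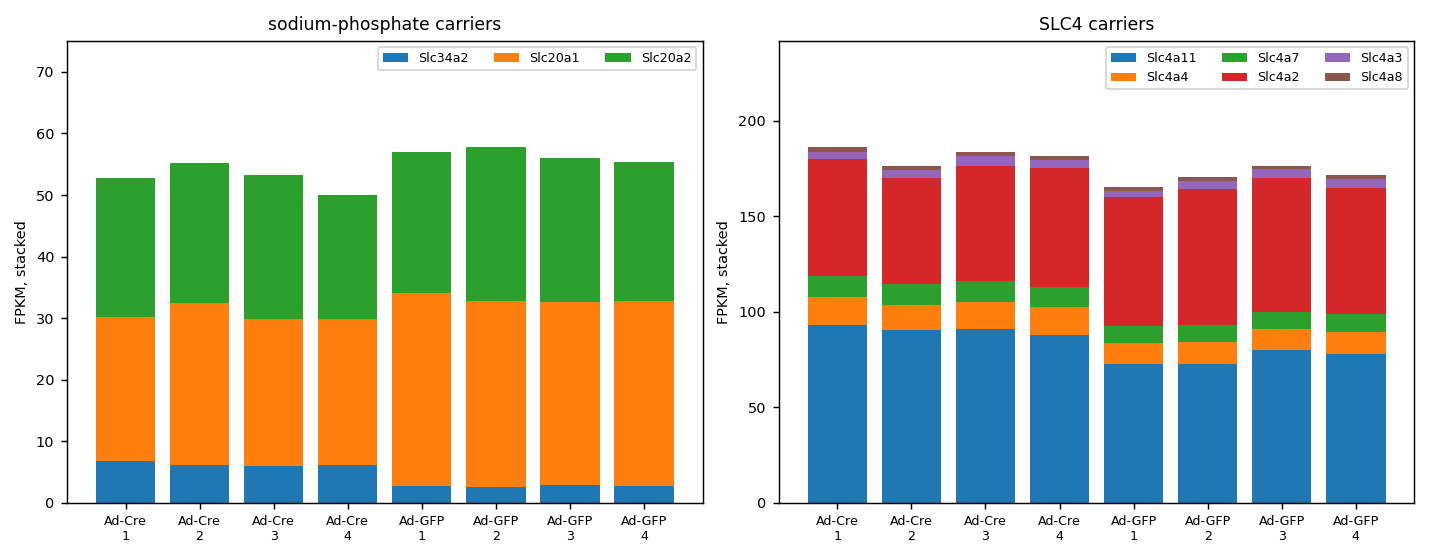
Stacked FPKM (y axis) of the sodium-phosphate carriers (left) and of the SLC4 carriers with at least 2 FPKM (right) in each library, Ad-Cre replicates 1 to 4 and then Ad-GFP replicates 1 to 4. The Slc34a2 layer is thicker and the Slc20a1 layer thinner in every Ad-Cre library, and Slc4a11 and Slc4a2 together make up most of the SLC4 stack.

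Of the 8 tested SLC4 genes, the bicarbonate transporter family, 4 rose and 2 fell in Ad-Cre. The kanadaptin gene Slc4a1ap, which encodes no carrier, is among the 8. Over all genes tested, 19.8% were called higher and 20.5% lower. Slc4a4 encodes NBCe1, the sodium bicarbonate cotransporter through which bicarbonate leaves proximal tubule cells. It was at 104, 98.6, 103 and 103 CPM in Ad-Cre and 77.3, 79.3, 80.6 and 82.6 CPM in Ad-GFP, and rose to 128% (log2 fold change 0.35 ± 0.032, SE, n = 4 per group; edgeR adjusted p = 1.4e-09). Slc4a7, for the electroneutral cotransporter NBCn1, rose to 123% (edgeR adjusted p = 1.04e-06), with 73.4, 72.9, 80.2 and 73.2 CPM in Ad-Cre and 61.3, 61.0, 57.3 and 63.8 CPM in Ad-GFP. In both genes each Ad-Cre library exceeded all Ad-GFP libraries. Slc4a11, for a borate transporter-like protein best known from the corneal endothelium, was the most abundant family member per length at 90.6 FPKM in Ad-Cre and 75.7 FPKM in Ad-GFP. Its CPM was 270, 264, 260 and 262 in Ad-Cre and 212, 215, 222 and 225 in Ad-GFP, a rise to 121% (edgeR adjusted p = 1.33e-09).

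The chloride-bicarbonate exchangers differed among themselves. Slc4a2, encoding the widely expressed exchanger AE2, was at 197, 185, 194 and 190 CPM in Ad-Cre and 215, 223, 220 and 228 CPM in Ad-GFP. The groups did not overlap, and the gene fell to 86.4% (edgeR adjusted p = 3.49e-07); 1141 bases of its exons overlap Fastk on the other strand. Slc4a3, encoding AE3 of heart and brain, was at 17.6, 17, 20 and 16.8 CPM in Ad-Cre and 14, 14.5, 16.8 and 15.4 CPM in Ad-GFP, a rise to 118% (edgeR adjusted p = 0.0122). Its lowest Ad-Cre and highest Ad-GFP libraries were separate only beyond the digits given. The Slc4a3 call did not survive leaving out Ad-Cre replicate 3 (edgeR adjusted p = 0.064) or Ad-GFP replicate 1 (0.054), nor limma on log2(FPKM + 1), where its log2 difference was 0.05 (adjusted p = 0.753). AE1, the exchanger of red cells and type A intercalated cells, had 1 count in all for its gene Slc4a1, in Ad-GFP replicate 3. Slc4a8, a sodium-driven exchanger gene of neurons and intercalated cells, was at 15.8 ± 1.28 CPM in Ad-Cre and 14.4 ± 1.65 CPM in Ad-GFP (SD, n = 4; edgeR adjusted p = 0.224). The other call in the family was Slc4a10, a neuronal bicarbonate transporter gene, at 0.615, 1.05, 0.913 and 0.996 CPM in Ad-Cre and 1.6, 1.71, 1.71 and 1.81 CPM in Ad-GFP (53.2% of Ad-GFP; edgeR adjusted p = 0.0026), a low level in either group.

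In the sodium-proton exchanger family SLC9, changes of members named here were small. Slc9a4, for the basolateral exchanger NHE4 of stomach and thick ascending limb, fell to 84.4% (17.8, 16.4, 16.6 and 17.7 CPM in Ad-Cre against 20.6, 21.6, 19.3 and 19.6 CPM in Ad-GFP; edgeR adjusted p = 0.00274). Its exons overlap Gm37435 over 764 bases on the other strand. Slc9a3, for the proximal exchanger NHE3, had 4, 5, 5 and 3 counts in Ad-Cre and 1, 2, 3 and 3 counts in Ad-GFP and was not tested. The scaffold that holds NHE3 and NaPi-IIa at the brush border, NHERF1, was nevertheless abundant: Slc9a3r1 was at 52.4 FPKM in Ad-Cre and 54.4 FPKM in Ad-GFP (edgeR adjusted p = 0.373). Slc9a3r2, for NHERF2, had 14.4, 13, 13.3 and 12.6 CPM in Ad-Cre and 11.9, 11.5, 11.5 and 11.3 CPM in Ad-GFP (115%; edgeR adjusted p = 0.0305). The Slc9a3r2 call was lost when any of 5 libraries was left out (Ad-GFP replicates 2, 3 and 4, with adjusted p-values of 0.0582, 0.0613 and 0.0627, and Ad-Cre replicates 1 and 3, with 0.0966 and 0.0503), and also with DESeq2 (0.0978), thinned libraries (0.142), upper-quartile factors (0.0513) and limma on log2(FPKM + 1) (0.053). Slc9a5, a brain exchanger gene, missed the threshold at 73.8% of Ad-GFP (edgeR adjusted p = 0.0528) and passed it without Ad-GFP replicate 1, Ad-GFP replicate 2 or Ad-Cre replicate 1 (adjusted p = 0.0273, 0.0198 and 0.0325).

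In the SLC12 family of cation-chloride cotransporters, the sodium-coupled members changed, whereas the potassium-chloride cotransporters were not called with all 8 libraries and no block. Slc12a3, encoding NCC, the thiazide-sensitive cotransporter of the distal convoluted tubule, was at 16.1, 14.0, 14.9 and 12.9 CPM in Ad-Cre and 7.45, 9.62, 11.1 and 9.62 CPM in Ad-GFP. The groups were separate and the gene rose to 153% (log2 fold change 0.61 ± 0.097, SE, n = 4 per group; edgeR adjusted p = 1.48e-05). Slc12a1, encoding NKCC2, the furosemide-sensitive cotransporter of the thick ascending limb, had 12, 9, 7 and 17 counts in Ad-Cre and 29, 32, 16 and 22 counts in Ad-GFP, which is 0.671, 0.378, 0.336 and 0.77 CPM in Ad-Cre and 1.66, 1.77, 0.945 and 1.37 CPM in Ad-GFP. It fell to 37.2% (95% interval 24.2% to 57.2%; edgeR adjusted p = 0.000469), the largest fall among the tested carriers, from counts too low to enter the filter of at least 5 CPM. Slc12a2, for the widely expressed NKCC1 that loads cells with chloride, was at 116, 115, 109 and 118 CPM in Ad-Cre and 101, 102, 97.1 and 103 CPM in Ad-GFP, a rise to 114% (edgeR adjusted p = 3.03e-05).

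The 4 potassium-chloride cotransporter genes, whose proteins carry chloride out of cells, were at 94.0% to 105% of Ad-GFP. With all 8 libraries and no block, edgeR and DESeq2 each called 0 of the 4, and 1 had an unadjusted edgeR p under 0.05. The share called by edgeR over all genes tested was 40.3%. Slc12a4, for KCC1, was at 81.9 ± 3.17 CPM in Ad-Cre and 81.9 ± 1.36 CPM in Ad-GFP (SD, n = 4; 95% interval of the ratio 95.2% to 105%). Slc12a7, for KCC4, was at 105% (edgeR adjusted p = 0.0775), and passed the threshold without Ad-Cre replicate 4 (adjusted p = 0.0153). Per length, Slc12a7, Slc12a4 and Slc12a2 were the most abundant members, at 27.6%, 27.3% and 21.8% of the summed SLC12 FPKM in Ad-Cre and 28.1%, 29.3% and 20.4% in Ad-GFP. Slc12a3 took 5.5% ± 0.35 of that sum in Ad-Cre and 3.87% ± 0.76 in Ad-GFP (SD, n = 4).

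Slc8a1, for the sodium-calcium exchanger NCX1 of heart and of the distal convoluted and connecting tubule, fell to 75.2%. Its level was 14.7, 16.4, 16.2 and 17.7 CPM in Ad-Cre and 20.2, 19.8, 24.7 and 22.1 CPM in Ad-GFP (log2 fold change -0.41 ± 0.073, SE, n = 4 per group; edgeR adjusted p = 5.81e-05). No Ad-Cre library reached the lowest Ad-GFP library. Exons of Slc8a1 overlap 296 bases of AC122399.1 on the other strand. The genes of the brain and muscle exchangers, Slc8a2 and Slc8a3, had 20 and 17 counts over the 8 libraries.

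**Figure D3:**
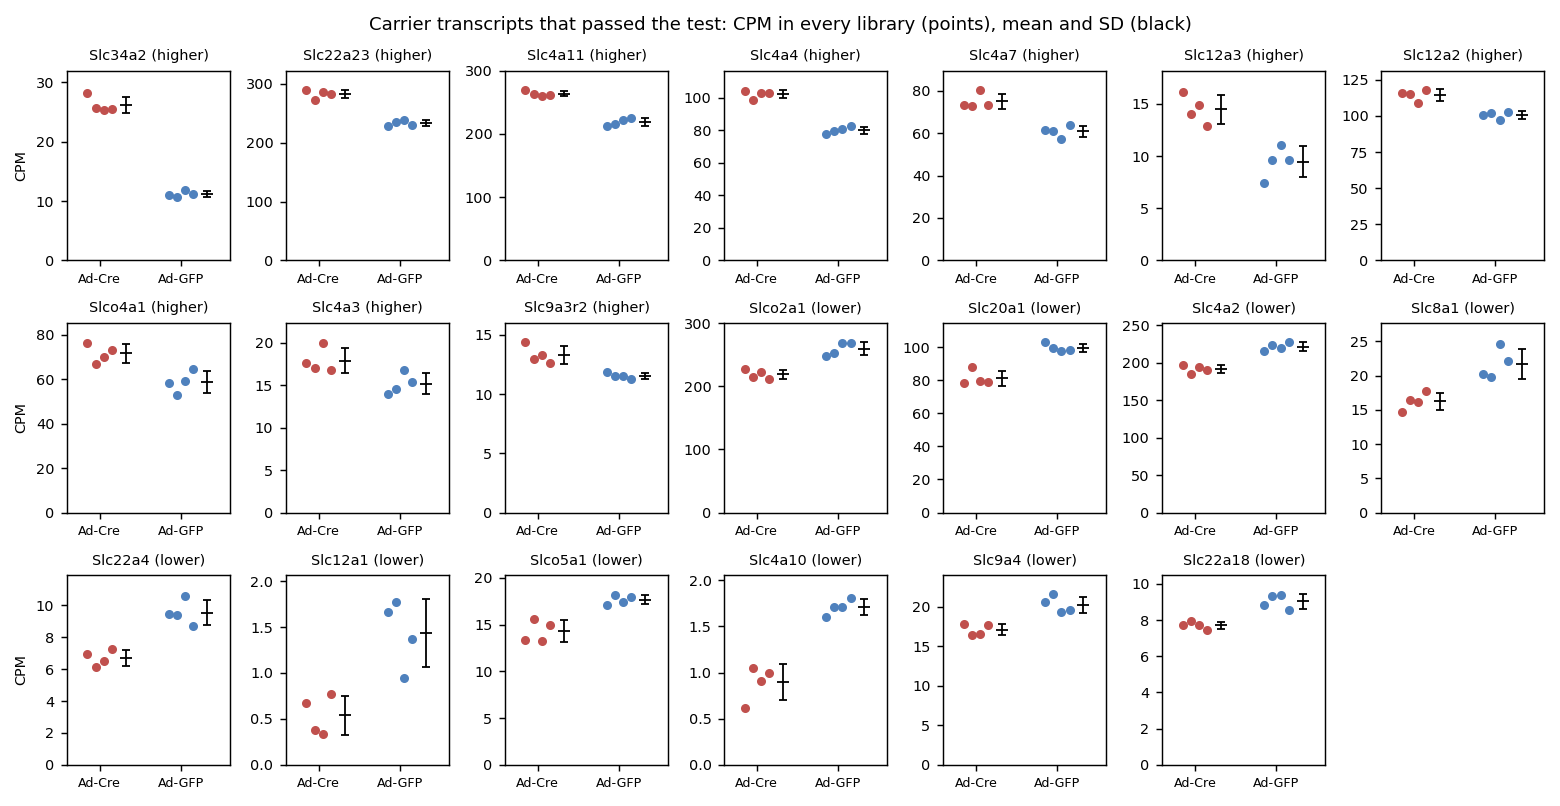
CPM (y axis, from 0) of 20 carrier genes that passed the test, 10 higher and 10 lower in Ad-Cre, with the 4 libraries of Ad-Cre on the left and of Ad-GFP on the right of each panel; black marks are the mean and SD. In every panel the groups are separate, with the widest gap relative to the level in Slc34a2, and Slc12a1 and Slc4a10 lie under 2 CPM. In Slc4a3 the groups all but touch, as the lowest Ad-Cre and the highest Ad-GFP library both round to 16.8 CPM.

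Carriers of organic cations, anions and carnitine (SLC22) were largely silent, as 10 of 26 had no count and 7 could be tested. The classical drug carriers of the proximal tubule were among the silent genes: Slc22a6 (OAT1), Slc22a8 (OAT3) and the urate carrier gene Slc22a12 (URAT1) had 0 counts in all 8 libraries. A count of 0 allows up to 3 counts over the libraries of a group, or 0.0355 CPM in Ad-Cre and 0.0438 CPM in Ad-GFP. Slc22a23, a family member of unassigned substrate, was by contrast the most abundant SLC22 gene at 51.8 FPKM in Ad-Cre and 43.8 FPKM in Ad-GFP. Its level of 289, 273, 287 and 283 CPM in Ad-Cre was above the 229, 235, 239 and 230 CPM in Ad-GFP, a rise to 121% (edgeR adjusted p = 1.03e-09).

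Slc22a4, for the ergothioneine carrier OCTN1, was at 6.94, 6.14, 6.49 and 7.29 CPM in Ad-Cre and 9.46, 9.4, 10.6 and 8.69 CPM in Ad-GFP. It fell to 70.3% (95% interval 61.2% to 80.8%; edgeR adjusted p = 0.000158). Slc22a5, for the carnitine carrier OCTN2, and Slc22a21, for OCTN3, lie on chromosome 11 as Slc22a4 does and were at 115% and 107% of Ad-GFP (edgeR adjusted p = 0.0794 and 0.72). Slc22a5 passed the threshold without Ad-GFP replicate 2 (adjusted p = 0.0133), and the rule by which reads were split between these related genes is unknown here. Slc22a18 fell to 85.3% (7.72, 7.94, 7.73 and 7.43 CPM in Ad-Cre against 8.83, 9.34, 9.39 and 8.56 CPM in Ad-GFP; edgeR adjusted p = 0.0426), a call near the threshold that held in 1 of the 8 fits that left out a library, the fit without Ad-GFP replicate 4, with adjusted p-values of 0.0416 to 0.098 over the 8. It was also lost with DESeq2 (adjusted p = 0.138), with thinned libraries (0.0825) and without a filter (0.0736).

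Of the organic anion transporter family SLCO, 14 genes were in the table and 5 were tested. Slco2a1, for the prostaglandin carrier PGT, was the most abundant per length, at 32 FPKM in Ad-Cre and 38.9 FPKM in Ad-GFP. It was at 228, 214, 222 and 212 CPM in Ad-Cre and 248, 253, 269 and 268 CPM in Ad-GFP, and fell to 84.4% (edgeR adjusted p = 1.62e-07). Its exons overlap 104 bases of n-R5s89, an rRNA gene, on the other strand. Slco4a1, for a thyroid hormone carrier, rose to 122%, with 76.4, 66.6, 70.1 and 73.1 CPM in Ad-Cre against 58.3, 52.9, 59.1 and 64.6 CPM in Ad-GFP (edgeR adjusted p = 3.65e-05). Slco5a1 fell to 81.4% (13.4, 15.6, 13.2 and 15 CPM in Ad-Cre against 17.1, 18.2, 17.4 and 18 CPM in Ad-GFP; edgeR adjusted p = 0.00131). Slco3a1 was at 101% (95% interval 96.6% to 105%). The proximal tubule carrier genes Slco1a1 and Slco4c1 had 6 and 43 counts over all libraries.

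None of the 5 sulfate and dicarboxylate carrier genes of the SLC13 family had enough counts to be tested. Slc13a1, for the brush border sulfate carrier NaS1, had 2, 1, 3 and 2 counts in Ad-Cre and 0, 0, 3 and 2 counts in Ad-GFP. Slc13a3, for the dicarboxylate carrier NaDC3, had 1, 1, 4 and 1 counts in Ad-Cre and 0, 2, 1 and 0 counts in Ad-GFP. In the SLC26 anion exchanger family 8 of 11 genes were tested and 0 were called with edgeR or DESeq2, while edgeR called 40.3% of all genes tested. Limma on FPKM called 0 of the 4 it could test, and 1 SLC26 gene had an unadjusted edgeR p under 0.05. That gene was Slc26a2, for the sulfate carrier that matrix-producing cells need for proteoglycan sulfation, at 20.6 ± 0.738 CPM in Ad-Cre and 18.9 ± 0.571 CPM in Ad-GFP (SD, n = 4; edgeR adjusted p = 0.0868). Slc26a7, for an anion carrier of type A intercalated cells, was at 5.81 ± 0.275 CPM in Ad-Cre and 5.15 ± 0.462 CPM in Ad-GFP (edgeR adjusted p = 0.234). Its FPKM was 1.16, 1.05, 1.1 and 1.16 in Ad-Cre and 0.91, 1.05, 3.02 and 1.07 in Ad-GFP, so that the higher Ad-GFP mean on that scale rests on Ad-GFP replicate 3. Slc26a4, for pendrin, had 4, 2, 5 and 1 counts in Ad-Cre and 4, 1, 5 and 8 counts in Ad-GFP.

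Arranged by nephron segment, carriers known from the proximal tubule had the smallest share of genes with enough counts to test, though the highest summed level of the 4 nephron segments. Of 23 such genes, 5 had no count, 15 had under 50 counts over the 8 libraries and 6 were tested. Of those 6, Slc4a4 rose and Slc22a4 fell, and the median log2 fold change was 0.07. The summed level of all 23 was 159 to 167 CPM in Ad-Cre and 134 to 144 CPM in Ad-GFP, most of it from Slc4a4. Both thick ascending limb genes fell, Slc12a1 to 37.2% and Slc9a4 to 84.4%. Of the 3 distal convoluted and connecting tubule genes Slc12a3 rose, Slc8a1 fell, and Slc9a2, for NHE2, was at 98.3% (95% interval 90.2% to 107%). Of 5 collecting duct genes 2 were tested, Slc4a8 and Slc26a7, and 0 were called by edgeR, DESeq2 or limma or had an unadjusted edgeR p under 0.05. The 19 widely expressed carriers held the largest share of the family counts, with a sum of 1239 to 1296 CPM in Ad-Cre and 1290 to 1328 CPM in Ad-GFP, and of the 16 tested 3 rose and 3 fell. Of 25 genes known mainly from tissues outside the kidney 10 were tested, 3 rose (Slc34a2, Slc4a11 and Slc4a3) and 1 fell (Slc4a10). For scale, edgeR called 40.3% of all 13337 genes tested, 19.8% higher and 20.5% lower.

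**Figure D4:**
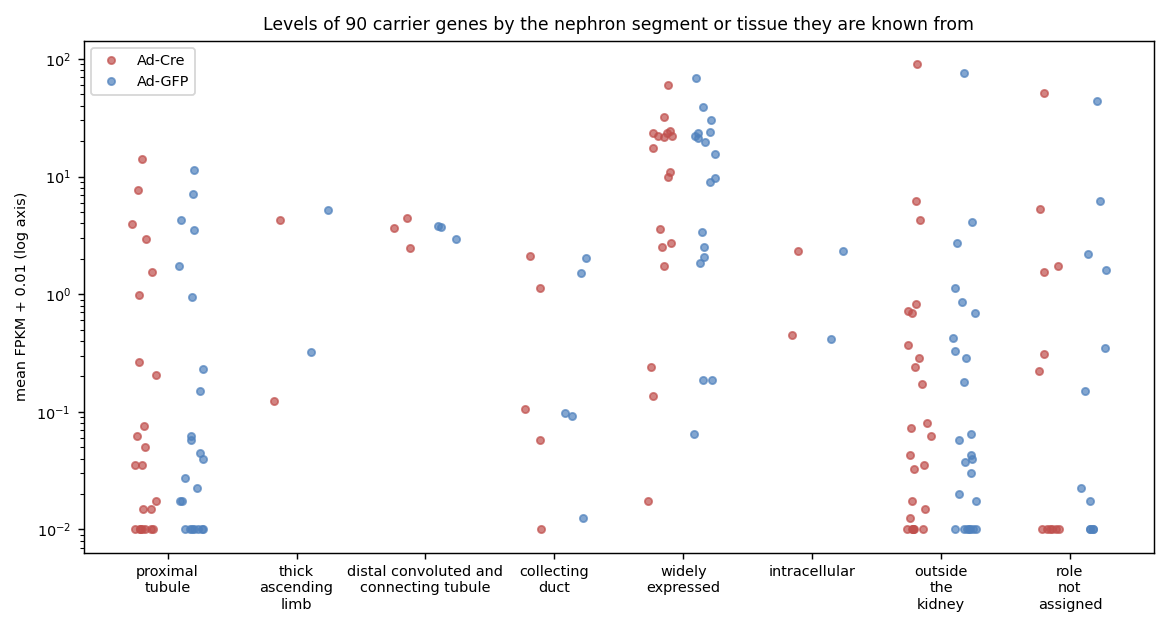
Mean FPKM plus 0.01 on a log axis (y) of 90 carrier genes by the nephron segment or tissue each is known from (x), 1 point per gene and group, Ad-Cre to the left of Ad-GFP. Points on the lowest line are listed at 0 FPKM; most proximal tubule genes lie there or under 1 FPKM, whereas most widely expressed genes lie over 1 FPKM.

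Segment markers outside the carrier families were measured in the same libraries. For scale, 19.8% of all 13337 genes tested were called higher and 20.5% lower. Of 12 proximal tubule markers 6 were tested, and 4 rose and 0 fell, with a summed level of 162 to 187 CPM in Ad-Cre and 114 to 129 CPM in Ad-GFP. By mean over all libraries the most abundant were Ggt1, a brush border peptidase gene, at 63.3 ± 1.06 CPM in Ad-Cre and 42.1 ± 1.99 CPM in Ad-GFP, and the injury marker Havcr1, at 46.9 ± 5.53 CPM in Ad-Cre and 30.4 ± 3.76 CPM in Ad-GFP (SD, n = 4). The endocytic receptor gene Lrp2 was close to Havcr1 in level, at 36.6 ± 1.76 CPM in Ad-Cre and 39.5 ± 3.28 CPM in Ad-GFP (SD, n = 4; edgeR adjusted p = 0.112). The water channel gene Aqp1, also expressed in endothelium, had the largest change of this list, at 22.4 ± 3.03 CPM in Ad-Cre and 4.52 ± 0.859 CPM in Ad-GFP (SD, n = 4; edgeR adjusted p = 1.02e-14). The 6 untested markers, Slc5a2, Slc5a12, Miox, Kap, Pck1 and Fbp1, had under 50 counts each over all libraries. Of 9 loop and distal nephron markers 7 were tested, and 4 fell and 0 rose, with sums of 94.9 to 100 CPM in Ad-Cre and 102 to 112 CPM in Ad-GFP and with Pvalb and Klk1 at 0 counts. Trpm6, a magnesium channel gene of the distal convoluted tubule, was at 74.6 ± 2.11 CPM in Ad-Cre and 72.4 ± 3.6 CPM in Ad-GFP, and Kng2 was at 56.4% of Ad-GFP. Slc12a3 rose in libraries in which no tested marker of the loop and distal list was called higher. That list joins loop with distal markers, and whether the level of Slc12a3 followed a cell type was not tested. Of 8 collecting duct markers 4 were tested, and 2 rose and 0 fell, with sums of 49.5 to 53.8 CPM in Ad-Cre and 44.0 to 48.4 CPM in Ad-GFP. The 2 that rose were Hsd11b2, to 126%, and Atp6v0d2, to 140% (edgeR adjusted p = 0.0183 and 0.0335), with overlapping groups for Atp6v0d2. The most abundant, Gata3 and Scnn1g, were at 105% and 115% and were not called (edgeR adjusted p = 0.328 and 0.0671). Aqp2, Atp6v1g3 and Foxi1 had no count. The part of these cell types in the carrier changes was not tested.

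Most endothelial, macrophage and fibroblast markers fell in the Ad-Cre libraries, whereas general epithelial markers went both ways. Among all genes tested, 20.5% were called lower and 19.8% higher. All 8 endothelial markers fell, with sums of 62.7 to 71.0 CPM in Ad-Cre and 125 to 134 CPM in Ad-GFP, led in abundance by Cdh5 (48.3%) and Pecam1 (49.7%). Of 8 macrophage markers 7 fell, with sums of 217 to 226 CPM in Ad-Cre and 248 to 287 CPM in Ad-GFP, led by Lyz2 (89.5%) and Csf1r (82.5%). The groups overlapped for Lyz2. Of 10 fibroblast markers 9 were tested and 6 fell, led by Acta2 (53.0%) and Col1a1 (63.7%). Of 8 general epithelial markers 2 rose and 5 fell. The most abundant, Krt8 and Cldn4, fell to 77.6% and 96.4% (edgeR adjusted p = 5.47e-14 and 0.0465), and the groups overlapped for Cldn4. The 2 that rose were Cdh16, to 123%, and Epcam, to 118% (edgeR adjusted p = 3.05e-09 and 4.68e-09). The share of these shifts in the falls of widely expressed carriers such as Slco2a1, which endothelial cells also express, was not tested.

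A list of 40 kinases, scaffolds, receptors, partner enzymes and transcription factors known to act on these carriers was also read. Of the 33 tested, 13 rose and 7 fell, against 19.8% higher and 20.5% lower among all genes tested. Limma on log2(FPKM + 1) called 6 of them higher. Car2, for the cytosolic carbonic anhydrase that supplies bicarbonate to SLC4 carriers, had the smallest p: it was at 32.9 ± 0.696 CPM in Ad-Cre and 73.1 ± 2.73 CPM in Ad-GFP (SD, n = 4), a fall to 45.0% (edgeR adjusted p = 2.25e-17). In the same libraries 4 of the 8 tested SLC4 genes rose, Slc4a4 and Slc4a7 among them, and 2 fell, Slc4a2 and Slc4a10. A link of Car2 to these changes was not tested. Among phosphate regulators, Pth1r, for the parathyroid hormone receptor, rose to 132%, and Kl, for the FGF23 co-receptor Klotho, rose to 166% (edgeR adjusted p = 1.17e-07 and 1.37e-07). Kl was at 13.6 ± 1.23 CPM in Ad-Cre and 8.18 ± 0.359 CPM in Ad-GFP. Xpr1, for the phosphate exporter, rose to 113% (edgeR adjusted p = 0.000203). Fgfr1, for an FGF receptor on the same list, fell to 93.7% (edgeR adjusted p = 0.0352), with overlapping groups. Wnk4, for a kinase that controls NCC and NKCC2, fell to 76.4%, with 17.3 ± 0.931 CPM in Ad-Cre and 22.6 ± 1.59 CPM in Ad-GFP (edgeR adjusted p = 2.43e-05). The listed kinase genes did not move together. Stk39 rose to 114%, Wnk3 to 123% and Wnk2 to 140% (edgeR adjusted p = 0.000211, 0.0362 and 0.0239). Sgk1 fell to 89.8% (edgeR adjusted p = 0.00632), and Wnk1 and Oxsr1 were not called. The groups overlapped for Wnk2 and Sgk1.

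By the FDR in the authors' deposited table, 19 of the 95 genes were under 0.05, 10 higher and 9 lower in Ad-Cre. These 19, as signed in the authors' deposited table, are all among the 21 called by edgeR and have the same direction.

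Counts and FPKM can also be set against each other within a gene, since count divided by FPKM follows the gene length that the authors' values imply. Scaled to the median gene of each library, this ratio in Ad-Cre was 112% of Ad-GFP for Slc8a1, 111% for Slc4a3, 110% for Slc22a15 and 109% for Slc26a1. It was 100% for Slc34a2, Slc12a3 and Slc20a1, so the changes of these 3 genes were alike on both scales. Of the 36 carriers with at least 5 CPM and 1 FPKM, 0 had groups that did not overlap in this ratio, against 3.14% of 10569 genes. Their ratios ran from 95.1% to 112%, and the 5th and 95th percentiles of all those genes were 95.6% and 105%. Slc8a1 fell on both scales, with a mean of 2.45 FPKM in Ad-Cre and 3.75 FPKM in Ad-GFP. Slc4a3 was at 4.24 ± 0.593 FPKM in Ad-Cre and 4.07 ± 0.636 FPKM in Ad-GFP (SD, n = 4), a smaller difference than in CPM.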

How the data were processed

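RNA sequencing libraries of 8 mouse renal fibroblast samples, 4 Ad-Cre and 4 Ad-GFP, were analysed from a gene table of 22322 Ensembl genes. Per the file headers, the deposited values include raw read counts, whole numbers for each gene. The authors also deposited FPKM values and group mean FPKM, a log2 fold change of those means, and p-values with an FDR, whose test is not named. The builds GRCm38 and mm10 are named in the submitters' processing notes; names for the aligner, counter, strand mode and annotation are not given in the sources used. Library totals were 15879244 to 23940043 counts, and replicates of a group differed by more than sampling noise (chi-square per degree of freedom 1.83 to 3.35).

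Counts were analysed with edgeR 4.0.16 in R 4.3.3: filterByExpr kept 13337 genes, TMM factors were 0.992 to 1.01, and the 2 groups were compared by a two-sided quasi-likelihood F-test. P-values were adjusted over all tested genes (Benjamini-Hochberg), and "rose" and "fell" are used only under 0.05. Percentages of Ad-GFP are 2 to the power of the fitted log2 fold change. The standard error of a log2 fold change is its absolute value over the square root of F. CPM uses TMM-scaled totals. Intervals and the limit for 0 counts cover counting and replicate spread only as far as these libraries show it. Exact permutation tests used all 70 splits. The fit was tested on simulated data. Coordinates are GENCODE M21 on GRCm38, in which all 95 genes were found; promoter windows are from RefSeq, GRCm38.p6.

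Segments and roles were assigned from general knowledge of these carriers. The members, lists, tests and alternatives were chosen with earlier results of these data known. Members called with a mean of at least 5 CPM were named with their values in every library (18 genes), as were 18 fixed carriers, 12 of them not already among those genes. A few genes that fall under these rules are counted in all totals but not reported here singly. Slc4a10, Aqp1, Lrp2 and uncalled members given with values were named after their values were seen. The same holds for the markers Cdh16, Epcam, Hsd11b2 and Atp6v0d2, for Fgfr1, and for the kinase genes other than Wnk4. Of the 6 called regulators of smallest p, 5 were named, with the 2 most abundant markers of each cell type, and other markers are named where they had no or few counts.

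The alternatives were RLE and upper-quartile factors, DESeq2 1.42.0, no filter, a minimum of 5 CPM, leaving out each library, a block for the replicate number, thinning to 15879244 counts per library, and limma 3.58.1 on log2(FPKM + 1) and on log2(FPKM + 0.1), where the mean was 1 FPKM or more. These last differences are on the log2(FPKM + pseudocount) scale and understate changes of low genes.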

Additional observations from a re-analysis of the deposited data

Results flagged for a closer look

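The CPM of 20 carriers, those that were both named by rule and tested, was examined for a library standing apart within its group, and 3 of 40 groups of 4 libraries exceeded Dixon's 95% critical value for 4 samples, where chance gives about 1 in 20. The Slc34a2 level of Ad-Cre replicate 1 (28.2 CPM) was the highest of its group, and its gap to the next library was 0.903 of the group's range. Without that library the log2 fold change of Slc34a2 was 1.19 (edgeR adjusted p = 2.72e-13). The Slc20a1 level of Ad-Cre replicate 2 (87.9 CPM) was the highest of its group with a gap of 0.895 of the range, and without it the log2 fold change was -0.34 (edgeR adjusted p = 5.56e-09). The Slc4a7 level of Ad-Cre replicate 3 (80.2 CPM) was the highest of its group with a gap of 0.924 of the range, and without it the log2 fold change was 0.27 (edgeR adjusted p = 1.1e-05). All 3 genes kept their call and direction without the library named.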

How the results depend on the processing

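Of 20 called genes of the group examined singly, the scaffold gene Slc9a3r2 among them, 17 kept their call and direction in every one of the 17 alternatives that gave them a value. In all 8 fits that left out a library, 17 kept it. The exceptions were Slc22a18, Slc9a3r2 and Slc4a3. The counts of carriers called higher and lower were 11 and 10; leaving out a library gave 9 to 12 higher and 9 to 10 lower, and limma on FPKM gave 8 and 8. The 3 uncalled genes Slc9a5, Slc22a5 and Slc12a7 passed the threshold in some alternatives. Limma on log2(FPKM + 1) and log2(FPKM + 0.1) called 6 carrier regulators higher in each, against 13, with fewer genes tested. Suv39h1 had a log2 fold change of -0.37 to -0.30 when a library was left out. Low-count genes such as Slc12a1 and Slc4a10 did not enter the filter of at least 5 CPM or the FPKM fits.

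Changes of sign arose in 12 genes, none of them past the threshold in any of those fits. With upper-quartile factors and with the filter of at least 5 CPM, Slc20a2 and Slc4a1ap were at -0.01 each, and Slco3a1 at -0.01 and -0.00. Without a filter Slc12a4 was at 0.01. With thinned libraries Slc12a4 was at 0.00, Slc26a6 at -0.00, Slc4a1ap at -0.01 and Slc9a2 at 0.01, and DESeq2 gave Slc12a4 0.00. Limma on log2(FPKM + 1) and log2(FPKM + 0.1) gave Slc20a2 -0.08 and -0.08, Slc22a15 -0.05 and -0.07, Slc26a7 -0.17 and -0.24, Slc4a1ap -0.01 and -0.01, Slc9a7 0.01 and 0.01, and Slco3a1 -0.03 and -0.03. The Slc26a7 values rest on Ad-GFP replicate 3, at 3.02 FPKM against 0.91 to 1.07 in the other Ad-GFP libraries. Over the 8 fits that each left out a library, the log2 fold change spanned Slc12a4 -0.02 to 0.02, Slc12a5 -0.17 to 0.10, Slc20a2 -0.01 to 0.03, Slc26a1 -0.14 to 0.07, Slc26a6 -0.06 to 0.15, Slc26a9 -0.09 to 0.48, Slc4a1ap -0.02 to 0.02, Slc9a2 -0.04 to 0.00, Slc9a7 -0.09 to 0.00 and Slco3a1 -0.00 to 0.03. The cause was not tested.

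The replicate numbers were not shown to pair the libraries: deviations from the group means correlated at 0.0831, 0.104, 0.0076 and -0.0115 between libraries of the same number 1 to 4, and not every library correlated best with its own number. With the replicate number as a block, 12 carriers were called higher and 9 lower: Slc12a7 passed the threshold (adjusted p = 0.0443) and Slc22a18 no longer did (0.0561).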
